A study of Mus musculus with 10 samples.

Results

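The set comprised 10 genes that encode transcriptional regulators of smooth muscle genes: myocardin (*Myocd*), serum response factor (*Srf*), 3 MEF2 factors (*Mef2a*, *Mef2c*, *Mef2d*), 4 TEAD factors (*Tead1*, *Tead2*, *Tead3*, *Tead4*), and the TEAD coactivator *Yap1*. They were chosen by name from the 55426 genes of the expression table, and all 10 were among the 15668 genes tested. PRDM16 peaks in or near them were taken from a list of 11271 peaks.

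RNA-Seq was performed on thoracic aortas of 3 control mice, which carried floxed alleles (Prdm16f/f), and 3 Prdm16SMKO mice, which carried the same alleles together with SMMHC-CreERT2. This tamoxifen-inducible Cre recombinase is driven by the smooth muscle myosin heavy chain (*Myh11*) promoter from a transgene on the Y chromosome. The Prdm16SMKO mice were therefore male, and recombination was directed to smooth muscle cells within a tissue of several cell types. The labels give no Cre in the controls, so the sex of the controls does not follow from the transgene. Per the methods, the deletion was induced in young adult mice by tamoxifen, given by mouth on consecutive days and followed by a washout, and the age at collection and the hour of collection are not given in the sources used here. ChIP-Seq was performed in wild-type primary vascular fibroblasts, which received a lentivirus encoding PRDM16 with a Flag tag, or the vector alone, for 48 hours and then 2 µg/mL puromycin for 1 week, and 1 anti-Flag library per condition was used. The peaks therefore come from fibroblasts that overexpressed PRDM16, and the expression values come from aortas that lost it.

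SRF is a DNA-binding protein that recognizes the CArG box in the promoters of contractile and growth factor-responsive genes. Myocardin and the related factors MRTF-A and MRTF-B bind SRF and switch on the contractile genes, whereas ternary complex factors bind SRF at immediate-early genes. MEF2 proteins bind an AT-rich box and are held in check by class II histone deacetylases, and TEAD proteins bind a GGAATG-type site and depend on the coactivators YAP and TAZ, which the Hippo kinases keep out of the nucleus.

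*Prdm16*, the targeted gene, stood at 56.1, 47.6, and 40.3 TPM (transcript abundance corrected for length and library size) in control aortas and at 23.3, 33.3, and 23.4 TPM in Prdm16SMKO aortas. The groups did not overlap, with a log2 fold change of -0.85 (SE 0.18) and a limma adjusted *P* of 0.0725. The adjusted *P* was 0.0398 without Prdm16SMKO 2 and 0.111 to 0.230 without any 1 of the other 5 aortas, and over all alternatives it ranged from 0.0232 to 0.319. The 7 smooth muscle markers summed to 20695 to 24137 TPM in control and 13803 to 17802 TPM in Prdm16SMKO aortas, so the tissue label held, and the sums did not overlap. The largest part of the sum was *Acta2*, with means of 11569 TPM in control and 7512 TPM in Prdm16SMKO aortas. Of the 7 markers, 0 passed an adjusted limma *P* of 0.05 (1.07% of all tested genes). Lower point estimates were seen for 6 (67.9% of all tested genes), and *Des* was higher. For the lower markers, fewer smooth muscle cells and less RNA per cell cannot be told apart in whole aortas. Brown adipocyte markers summed to 81.3, 539, and 281 TPM in control aortas 1 to 3 and to 157, 131, and 459 TPM in Prdm16SMKO aortas 1 to 3, white adipocyte markers to 342 to 1254 and 382 to 827 TPM, and mitochondrial transcripts made up 14.7% to 26.5% of TPM. Control 2 and Prdm16SMKO 3, which had the highest brown adipocyte sums of their groups, were therefore also left out together.

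None of the 10 regulators differed between Prdm16SMKO and control aortas at an adjusted *P* of 0.05 in limma, where 1.07% of all tested genes did (168 of 15668, with 61 or 0.389% higher and 107 or 0.683% lower). At an unadjusted limma *P* under 0.05 there were 2 regulators, *Mef2a*, lower, and *Tead2*, higher, against 12.7% of all tested genes. The same 2 were the only regulators whose groups did not overlap, against 19.0% of all tested genes (14.9% lower and 4.08% higher). The median log2 fold change was -0.04 over the regulators and -0.12 over all tested genes, and 6 regulators had a lower and 4 a higher point estimate, where 67.9% of all tested genes were lower. Median ratio scaling moved the all-gene median to 0.00024, the split of calls to 196 higher and 215 lower (2.62% of the tested genes), and the median of the regulators to 0.075. No regulator passed under it or under any of the other alternatives, including the one without control 2 and Prdm16SMKO 3. The paper's own list of changed genes with a PRDM16 promoter peak, from the same aortas, holds *Mef2a* as lower.

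*Myocd* (chr11:65176561-65269989, GRCm38, minus strand), the smooth muscle and heart coactivator of SRF, stood at 111, 72.1, and 96.4 TPM in control and 116, 131, and 86.5 TPM in Prdm16SMKO aortas. The groups overlapped, because the lowest Prdm16SMKO aorta lay inside the control range. The log2 fold change was 0.25 (SE 0.20), with a 95% interval of -0.19 to 0.70 and an adjusted *P* of 0.630, so that a fold change between 0.876 and 1.62 was compatible with these aortas. Without single aortas, the log2 fold change ranged from 0.08 to 0.42.

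*Srf* (chr17:46548329-46556175, minus strand) stood at 94.4, 81.9, and 74.4 TPM in control and 75.0, 83.8, and 61.4 TPM in Prdm16SMKO aortas. Those ranges overlapped as well, and the log2 fold change was -0.19 (SE 0.15, 95% interval -0.53 to 0.14, adjusted *P* 0.631). The ubiquitous factor and its muscle coactivator thus had point estimates of opposite sign, and both 95% intervals included 0.

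*Mef2a* (chr7:67231163-67372858, minus strand), which had the highest mean of the set in control aortas, stood at 121, 98.7, and 95.2 TPM in control and 82.1, 91.6, and 72.4 TPM in Prdm16SMKO aortas. Every Prdm16SMKO aorta lay below every control aorta. The log2 fold change was -0.35 (SE 0.14, 95% interval -0.67 to -0.04), or 0.782-fold, with an adjusted *P* of 0.329, and it was -0.24 after median ratio scaling with an adjusted *P* of 0.126. The related *Mef2c* (chr13:83504034-83667080, plus strand) stood at 104, 77.4, and 77.8 TPM in control and 91.5, 88.9, and 66.8 TPM in Prdm16SMKO aortas, and *Mef2d* (chr3:88142372-88172086, plus strand) at 84.5, 67.5, and 70.7 TPM and 78.6, 81.1, and 60.8 TPM. Both overlapped between the groups, at log2 fold changes of -0.07 (SE 0.17) for *Mef2c* and -0.02 (SE 0.15) for *Mef2d*, and the sign of both turned under median ratio scaling, to 0.05 and 0.10.

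*Tead1* (chr7:112679318-112906807, plus strand), a TEAD factor of muscle, stood at 34.2, 26.9, and 30.5 TPM in control and 24.6, 27.7, and 24.2 TPM in Prdm16SMKO aortas. One Prdm16SMKO aorta lay inside the control range, and the log2 fold change was -0.26 (SE 0.14, 95% interval -0.56 to 0.05, adjusted *P* 0.473). *Tead2* (chr7:45215753-45233644, plus strand) stood at 5.19, 4.52, and 4.64 TPM in control and 5.72, 6.46, and 7.05 TPM in Prdm16SMKO aortas. It was the only regulator that lay higher in every Prdm16SMKO aorta than in any control aorta, with a log2 fold change of 0.41 (SE 0.17, 95% interval 0.03 to 0.79) and an adjusted *P* of 0.356. After median ratio scaling its log2 fold change was 0.53 with an adjusted *P* of 0.131.

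*Tead3* (chr17:28331671-28350817, minus strand) was the most abundant TEAD transcript, at 99.2, 74.3, and 67.4 TPM in control and 65.7, 87.6, and 56.8 TPM in Prdm16SMKO aortas, and its groups overlapped (log2 fold change -0.20, SE 0.19, adjusted *P* 0.702). *Tead4* (chr6:128224288-128300823, minus strand) was near the filter on low values, at 0.340, 0.550, and 0.340 TPM in control and 0.790, 0.410, and 0.670 TPM in Prdm16SMKO aortas, and its log2 fold change of 0.49 had an SE of 0.56. That error left a range from -0.78 to 1.76, so that a difference in *Tead4* was not detectable here. *Yap1* (chr9:7931999-8004596, minus strand), the coactivator of the TEAD proteins, stood at 52.0, 39.0, and 42.1 TPM in control and 46.2, 52.3, and 41.5 TPM in Prdm16SMKO aortas. The groups overlapped, and the log2 fold change of 0.08 (SE 0.15, 95% interval -0.26 to 0.41) fell to -0.01 without control 2 or without Prdm16SMKO 2.

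Within the groups, the regulators followed the order that most genes had across single aortas, except at the low end of the controls. Control 1 was the highest control aorta for 9 of the 10 regulators and for 65.8% of all tested genes, and Prdm16SMKO 2 the highest of its group for 7 and for 60.6%. Prdm16SMKO 3 was the lowest of its group for 8 regulators and for 56.0% of all tested genes, and control 2 the lowest control for 6 and for 5014 of the 15668 tested genes. Mitochondrial transcripts were lowest in control 1 (14.7% of TPM) and highest in control 2 (22.2%) and Prdm16SMKO 3 (26.5%), the same 2 aortas that had the highest brown adipocyte marker sums. The part of mitochondrial transcripts and of fat in these levels was not tested.

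**Figure D1:**
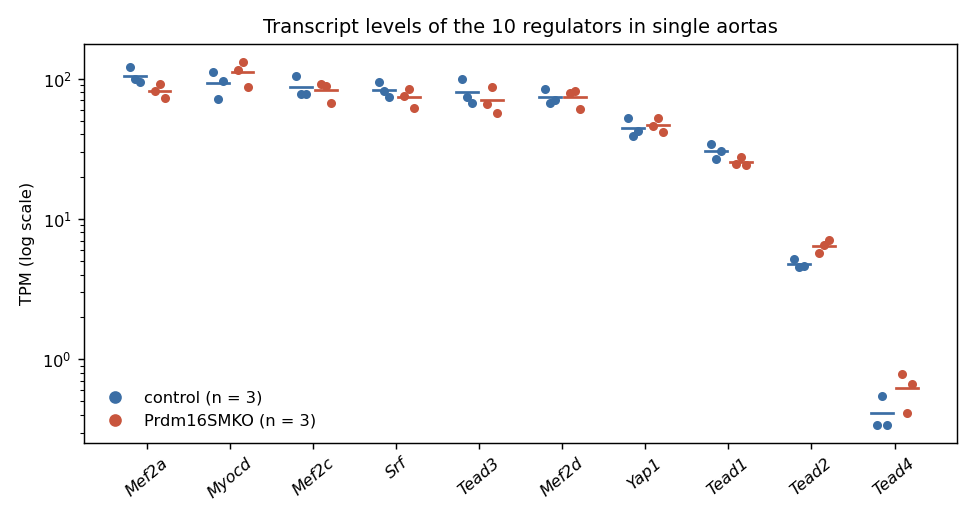
TPM of each regulator on a log axis, ordered by the mean in control aortas, with 1 point per aorta and a line at the group mean (n = 3 control and n = 3 Prdm16SMKO). Control and Prdm16SMKO points are apart only for *Mef2a*, lower, and *Tead2*, higher in Prdm16SMKO.

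TPM is corrected for transcript length, so levels may be set side by side. In control aortas the order of the mean TPM ran from *Mef2a* (105 ± 14.2), *Myocd* (93.2 ± 19.6), *Mef2c* (86.3 ± 15.1), *Srf* (83.5 ± 10.1), *Tead3* (80.3 ± 16.7), and *Mef2d* (74.2 ± 9.04) to *Yap1* (44.4 ± 6.81), *Tead1* (30.5 ± 3.68), *Tead2* (4.78 ± 0.357), and *Tead4* (0.410 ± 0.121; SD, n = 3 each). The ranges of neighbours overlapped among the first 6 genes, and from *Mef2d* downward each gene lay apart from the next in both genotypes. In Prdm16SMKO aortas *Myocd* came first (111 ± 22.7 TPM), followed by *Mef2c* (82.4 ± 13.6) and *Mef2a* (82.0 ± 9.63). *Mef2a* exceeded 94.5% of all tested genes in control aortas and *Myocd* 93.6%, whereas *Tead4* exceeded 1.57%.

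**Figure D2:**
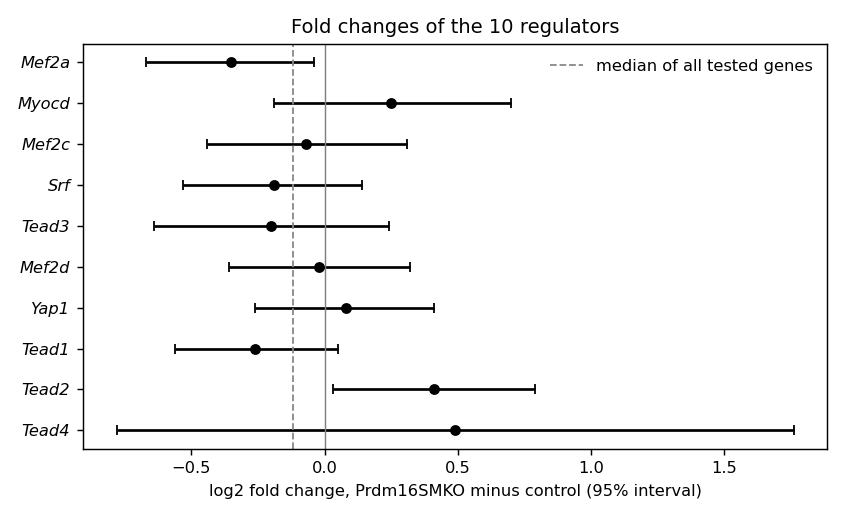
Log2 fold change of each regulator, Prdm16SMKO minus control, from limma, with 95% intervals. A dashed line marks the median of all tested genes (-0.12). Only the intervals of *Mef2a* (-0.67 to -0.04) and *Tead2* (0.03 to 0.79) leave out 0, before adjustment for the 15668 genes tested.

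The makeup of the MEF2 and TEAD families was compared as the share of each gene in the summed TPM of its family, a ratio within each aorta that library scaling cannot change. *Mef2a* made up 39.2%, 40.5%, and 39.1% of MEF2 transcripts in control aortas and 32.6%, 35.0%, and 36.2% in Prdm16SMKO aortas, a difference of -4.99 percentage points. All Prdm16SMKO shares were below all control shares. The exact two-sided permutation *P* was 0.1, the smallest that 3 against 3 can give, and 0.233 after adjustment over 7 shares. *Mef2d* made up 27.3%, 27.7%, and 29.0% in control and 31.2%, 31.0%, and 30.4% in Prdm16SMKO aortas, again without overlap (2.84 points, exact permutation *P* 0.1, adjusted 0.233). The 3 shares add up to the whole, so a lower share of *Mef2a* raises the others, and the TPM of *Mef2d* itself was 74.2 in control and 73.5 in Prdm16SMKO aortas. The share of *Mef2c* was 32.4% ± 0.959 in control and 34.6% ± 1.52 in Prdm16SMKO aortas (SD, n = 3 each, exact permutation *P* 0.2).

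Among TEAD transcripts, *Tead2* made up 3.74%, 4.25%, and 4.51% in control and 5.91%, 5.29%, and 7.95% in Prdm16SMKO aortas (2.22 points, exact permutation *P* 0.1, adjusted 0.233). The 2 groups of *Tead2* shares did not overlap. *Tead3* held 69.0% ± 3.06 of TEAD transcripts in control and 67.9% ± 3.85 in Prdm16SMKO aortas, and *Tead1* 26.5% ± 2.73 and 25.1% ± 2.32 (SD, n = 3 each), with exact permutation *P* values of 0.8 and 0.7. Neither share differed beyond the spread between aortas, and the summed TEAD TPM, 116 ± 19.9 and 103 ± 17.5 (SD, n = 3 each), had an exact permutation *P* of 0.5. The summed MEF2 TPM was 266 ± 38.1 in control and 238 ± 33.3 in Prdm16SMKO aortas (SD, n = 3 each, exact permutation *P* 0.6).

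**Figure D3:**
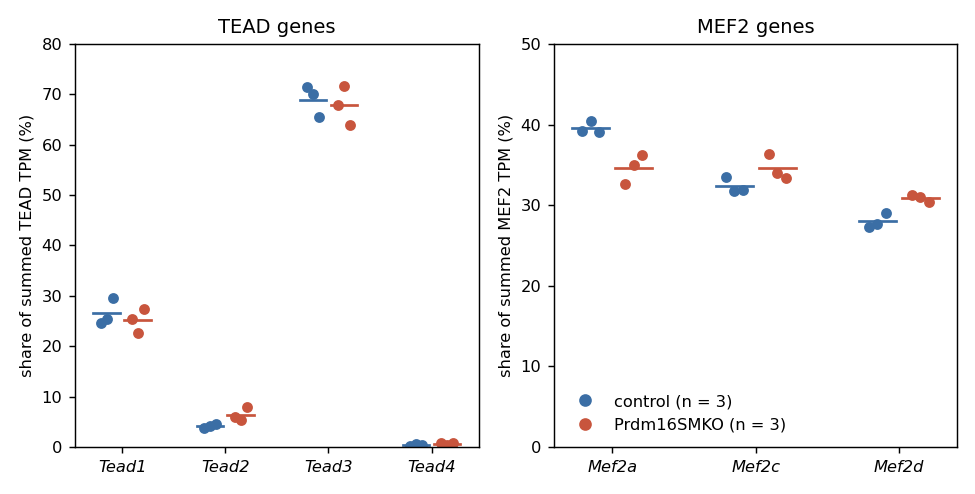
Share of each gene in the summed TPM of its family, in percent, with 1 point per aorta and a line at the group mean (n = 3 per group). The shares of *Mef2a* (lower), *Mef2d* (higher), and *Tead2* (higher) in Prdm16SMKO aortas do not overlap those of control aortas. Each has an exact permutation *P* of 0.233 after adjustment over 7 shares. Shares of a family are tied to each other, and the log2 fold change of *Mef2d* itself was -0.02.

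The 3 genes whose log2 values, centred on their own means, ran closest to those of *Myocd* over the 6 aortas were *Lyrm1*, *Ints6*, and *Tshz3*, with root mean square differences of 0.0467, 0.0539, and 0.0680 on the log2 scale. The median difference from *Myocd* over all 15667 other tested genes was 0.345. The 3 genes were picked as the smallest of these differences, so their likeness to *Myocd* follows from the choice. *Lyrm1* stood at 4.38, 2.85, and 3.47 TPM in control and 4.34, 5.08, and 3.30 TPM in Prdm16SMKO aortas, with the same low control 2 and high Prdm16SMKO 2 as *Myocd*. None of the contractile genes was among the 3 closest, but their distances from *Myocd* were not compared, so their relation to it was not tested.

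The partners of these regulators were then examined by lists. Of 10 tested myocardin-related factors and SRF cofactors, 1 passed the test (1.07% of all tested genes). An unadjusted limma *P* under 0.05 was reached by 2 (12.7% of all tested genes). *Csrp1*, a LIM-domain protein that can join SRF complexes, stood at 1623, 1407, and 1470 TPM in control and 826, 869, and 695 TPM in Prdm16SMKO aortas. It was lower in every Prdm16SMKO aorta, with a log2 fold change of -0.92 (SE 0.12) and an adjusted *P* of 0.00957. Without control 3 it was no longer past the threshold, at a log2 fold change of -0.93. *Mrtfa*, which encodes MRTF-A, had a log2 fold change of 0.26 (SE 0.17, adjusted *P* 0.547) and *Mrtfb* of -0.13 (SE 0.19, adjusted *P* 0.813). Neither passed the test.

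Of 9 tested MEF2 partners and class II deacetylases, 0 passed, and 2 had an unadjusted limma *P* under 0.05 (12.7% of all tested genes). The highest point estimate was that of *Hdac9*, a deacetylase that represses MEF2 (0.66, SE 0.15, adjusted *P* 0.0975), and the lowest that of the coactivator *Ncoa2* (-0.29, SE 0.19, adjusted *P* 0.558). *Hdac9* stood at 19.9, 16.4, and 21.7 TPM in control and 32.9, 32.4, and 26.3 TPM in Prdm16SMKO aortas, without overlap. Median ratio scaling called *Hdac9* (0.78, adjusted *P* 0.0401) and *Mapk7*, a kinase that activates MEF2 (0.59, adjusted *P* 0.0417), which had a log2 fold change of 0.48 (SE 0.14, adjusted *P* 0.201) without it and was named after its values were seen.

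Of 19 tested YAP partners and Hippo pathway genes, 0 passed, with 5 at an unadjusted limma *P* under 0.05 (12.7% of all tested genes). Lower point estimates were seen for 18 of the 19 (67.9% of all tested genes), with a list median of -0.25 (all tested genes -0.12) that became -0.14 after median ratio scaling. *Wwtr1*, which encodes TAZ, the partner of YAP, stood at 62.1, 52.0, and 49.1 TPM in control and 39.8, 41.2, and 39.4 TPM in Prdm16SMKO aortas. Its groups did not overlap, at a log2 fold change of -0.43 (SE 0.12, adjusted *P* 0.180). The extremes of the list were *Wwc1* (-0.66, SE 0.37) and *Frmd6* (0.08, SE 0.18), both upstream regulators of the Hippo kinases, at adjusted *P* values of 0.496 and 0.896.

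Targets of the regulators were read the same way, with *Srf* itself among the immediate-early targets, *Mef2c* and *Hdac9* among the MEF2 targets, and *Lats2* and *Ptpn14* in both YAP lists. Of 18 tested smooth muscle genes with CArG-dependent promoters, 0 passed, 10 had an unadjusted limma *P* under 0.05 (12.7% of all tested genes), and 9 did not overlap between the groups (19.0%). Their median log2 fold change was -0.27, and -0.15 after median ratio scaling, with lower point estimates for 16 (67.9% of all tested genes). *Acta2*, smooth muscle actin, stood at 12433, 11250, and 11024 TPM in control and 7850, 8230, and 6455 TPM in Prdm16SMKO aortas. All Prdm16SMKO values were below all control values, at a log2 fold change of -0.63 (SE 0.13, adjusted *P* 0.0719). *Cnn1*, calponin, had a log2 fold change of -0.47 (SE 0.11, not past the threshold), *Tagln*, transgelin, of -0.30 (adjusted *P* 0.345), and *Myh11*, the myosin heavy chain of smooth muscle and source of the Cre promoter, of -0.24 (adjusted *P* 0.573). *Des*, desmin, was the highest of the list at 0.45 (SE 0.14, adjusted *P* 0.233). Without mitochondrial transcripts in the TPM total, *Acta2* and *Cnn1* passed, at adjusted *P* values of 0.0225 and 0.0477. After median ratio scaling those genes did not pass (0.0751 and 0.0566), and *Des* (0.56, adjusted *P* 0.0421) and *Kcnmb1*, a subunit of the BK potassium channel named after its values were seen (-0.48, adjusted *P* 0.0346), did. The 7 smooth muscle markers are all members of this list, their sum moved with it, and their part in it was not tested.

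Of 10 tested immediate-early targets of SRF and ternary complex factors, 0 passed, with 4 at an unadjusted limma *P* under 0.05 (12.7% of all tested genes). The extremes were *Fos* (-0.74, SE 0.50, adjusted *P* 0.577) and *Egr2* (0.86, SE 0.37, adjusted *P* 0.381). *Fos* stood at 75.9, 27.6, and 16.6 TPM in control aortas alone, a spread that exceeded the difference between the groups. Of 12 tested cytoskeletal genes with SRF-dependent transcription, 0 passed, with 3 at an unadjusted limma *P* under 0.05 (the same 12.7%), from *Actb* and *Zyx* (-0.41 each) to *Vim* (0.28).

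Of 20 tested YAP-TEAD targets, 1 passed (1.07% of all tested genes), with 6 at an unadjusted limma *P* under 0.05 (12.7% of all tested genes). *Ankrd1*, a muscle ankyrin repeat protein, stood at 7.66, 6.94, and 7.26 TPM in control and 35.7, 39.6, and 33.1 TPM in Prdm16SMKO aortas. It rose in every Prdm16SMKO aorta, with a log2 fold change of 2.29 (SE 0.13) and an adjusted *P* of 0.000164, and passed under all 17 settings of the fit. The other defining targets of the list did not pass the test. *Ccn2* had a log2 fold change of 0.26 (SE 0.16, adjusted *P* 0.528) and *Ccn1* of -1.36 (SE 0.30, adjusted *P* 0.0805). *Ccn1* stood at 548, 335, and 353 TPM in control and 96.8, 187, and 214 TPM in Prdm16SMKO aortas, without overlap and in the opposite direction to *Ankrd1*. It passed without control 2 and Prdm16SMKO 3, at -1.71 and an adjusted *P* of 0.0316, the only alternative in which it passed, and its adjusted *P* otherwise ranged from 0.0609 to 0.272. The list median was -0.07, and 0.05 after median ratio scaling.

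Of 9 tested MEF2 targets, 1 passed (1.07% of all tested genes), with 3 at an unadjusted limma *P* under 0.05 (12.7% of all tested genes). *Nr4a1*, an orphan nuclear receptor induced as an immediate-early gene, stood at 110.0, 110.0, and 85.0 TPM in control and 29.9, 51.8, and 42.3 TPM in Prdm16SMKO aortas. It was lower in all Prdm16SMKO aortas, with a log2 fold change of -1.32 (SE 0.20, adjusted *P* 0.0198), and was no longer past the threshold without control 1 (adjusted *P* 0.0861) or without control 2 (adjusted *P* 0.0682).

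**Figure D4:**
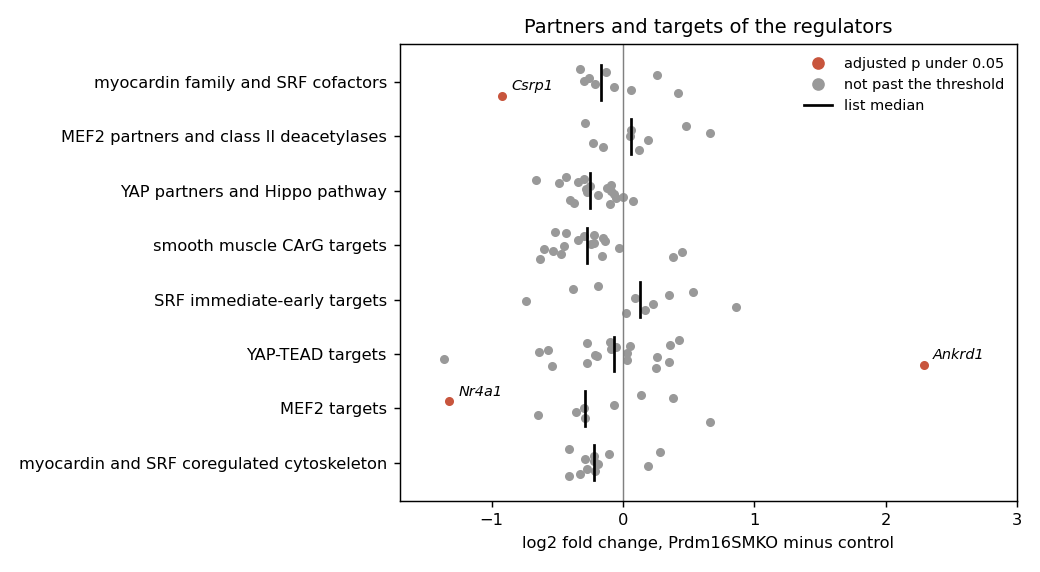
Log2 fold change, Prdm16SMKO minus control, of every tested gene in 8 lists of partners and targets, with 1 point per gene and a black line at the list median. Red points passed an adjusted limma *P* of 0.05 and are *Csrp1* (-0.92), *Ankrd1* (2.29), and *Nr4a1* (-1.32).

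Flag-PRDM16 peaks were next located at the regulators. A peak whose centre was within 2 kb of a curated RefSeq start of the gene counted as a promoter peak. By this rule 6 of the 10 regulators had one (*Srf*, *Mef2a*, *Mef2c*, *Tead1*, *Tead4*, and *Yap1*), where 43.4% of the tested genes with a curated start did (5747 of 13249). *Mef2c* has 4 curated starts, and its peak lay at an internal one, 20.5 kb into the gene. *Mef2d*, with a peak 3.38 kb from its start, was added by a limit of 5 kb, and a window that ended 100 bp past the start left *Mef2a* and *Mef2c*. At a q of at most 1e-05, 4 regulators (*Srf*, *Mef2a*, *Tead1*, and *Tead4*) and 29.0% of the tested genes had a promoter peak. With 1 PRDM16 library there is no replicate check of any peak. None of the peaks of the regulators overlapped any of the 67 peaks of the vector library. Only 16 of all 11271 PRDM16 peaks did, so this does not set the peaks of the regulators apart.

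Altogether 16 peaks lay inside the bodies of 8 regulators. *Srf* and *Tead1* each held 4, where 1.47% of tested genes held at least that many. *Mef2c* and *Yap1* each held 2, where 8.64% of tested genes held 2 or more, and *Mef2a*, *Mef2d*, *Tead3*, and *Tead4* each held 1. At least 1 body peak was found in 37.7% of tested genes. The body of *Srf* is 7.85 kb long and that of *Tead1* 227 kb. A curated start of *Mir6976* lies within 2 kb of 3 of the *Srf* peaks, which could not be assigned to 1 of the 2 genes. No peak lay in *Myocd* or *Tead2*: the nearest to the *Myocd* start was 96.5 kb upstream, and the nearest to the *Tead2* start was 26.0 kb upstream.

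The strongest peak of the set covered the *Tead4* start (chr6:128299651-128301010) with a fold enrichment of 10.9, above 97.9% of all PRDM16 peaks. The next was in an intron of *Tead1*, 41.2 kb downstream of its start (chr7:112720387-112720779), with a fold enrichment of 10.5. The median over all PRDM16 peaks was 5.27. The *Mef2a* promoter peak (chr7:67372451-67373172) had a fold enrichment of 7.34 and a summit 183 bp upstream of the start, and the *Tead1* promoter peak 7.38. The promoter peaks of *Srf*, *Mef2c*, and *Yap1* were weaker, at 4.26 and 5.27 for *Srf*, 4.22 for *Mef2c*, and 4.03 for *Yap1*. *Tead4* thus had the strongest peak in the fibroblasts and the lowest TPM in the aorta of the 10 genes.

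**Figure D5:**
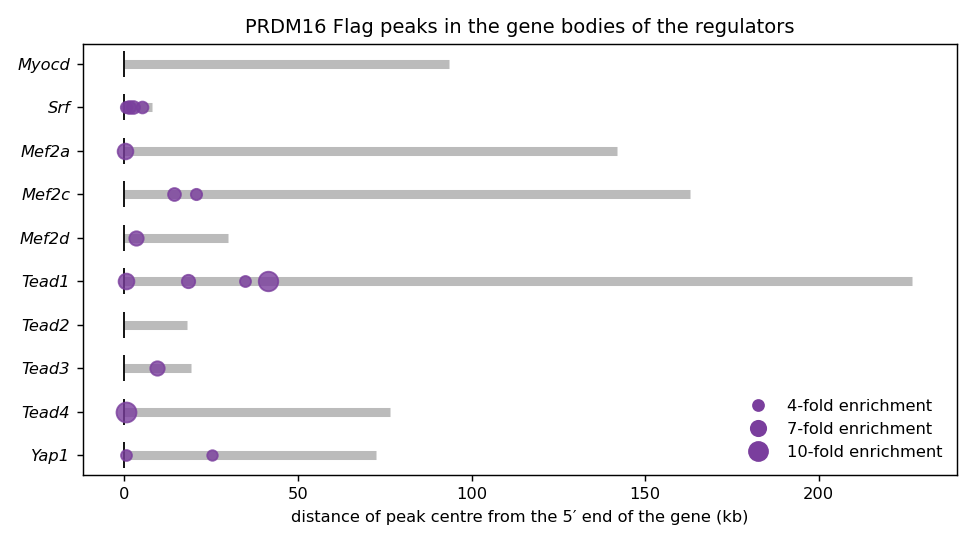
Position of the centre of each PRDM16 peak along the bodies of the regulators, in kb from the 5′ end of the gene (grey bars, gene length), with point size by fold enrichment. The promoter peaks of *Srf*, *Mef2a*, *Tead1*, *Tead4*, and *Yap1* sit at the 5′ end, the strongest point of *Tead1* lies 41.3 kb into the gene, and *Myocd* and *Tead2* have none.

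The sequences at 4 of these sites are shown because they hold, or lack, the boxes that the regulators themselves bind. Each was read from GRCm38. The first is the RefSeq stretch of 160 bases before the *Srf* start (chr17:46556163-46556322), printed on the strand of the gene, with CArG boxes, the core of ternary complex factor sites, and the GC box in capitals. The other 3 are windows around peak summits on the plus strand, in *Srf* (chr17:46554628-46554788, intron), upstream of *Mef2a* (chr7:67372961-67373121), and in *Tead1* (chr7:112720580-112720740, intron), where capitals mark a TEAD-type site, a GATA-type site, the GC box, the ternary complex factor core, or a CArG or MEF2 box, searched on both strands.
Srf promoter: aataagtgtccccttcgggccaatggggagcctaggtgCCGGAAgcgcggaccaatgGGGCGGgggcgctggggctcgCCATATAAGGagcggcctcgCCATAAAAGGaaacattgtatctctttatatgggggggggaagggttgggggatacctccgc
Srf intron summit: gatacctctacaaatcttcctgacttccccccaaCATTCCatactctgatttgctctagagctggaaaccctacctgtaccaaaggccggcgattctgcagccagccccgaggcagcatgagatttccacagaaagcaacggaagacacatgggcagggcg
Mef2a promoter summit: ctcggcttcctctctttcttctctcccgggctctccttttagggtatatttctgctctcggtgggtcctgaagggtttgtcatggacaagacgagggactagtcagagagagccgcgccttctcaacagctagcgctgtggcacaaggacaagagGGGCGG
Tead1 intron summit: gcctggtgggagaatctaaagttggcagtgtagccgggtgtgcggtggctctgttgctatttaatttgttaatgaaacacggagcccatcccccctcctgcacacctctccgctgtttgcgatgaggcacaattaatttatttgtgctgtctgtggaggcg

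The *Srf* promoter held CArG boxes at 82 and 62 bases before the start, the ternary complex factor core CCGGAA at 122, and the GC box GGGCGG at 103. A CArG box was found in 1.63% of the 32851 promoters of the RefSeq table, each 300 bases long, and among the 11 promoter entries of 7 regulators in *Srf* alone. The *Srf* promoter peak closer to the start ended 10 bp downstream of it, 63 bp short of the nearer CArG box. The intronic *Srf* window, from the other *Srf* promoter peak, held the TEAD-type site GGAATG on the minus strand. The *Mef2a* window held GGGCGG, and the *Tead1* window held none of the boxes.

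Over their whole length, 0 of the 16 peaks of the regulators held a CArG box (0.968% of 11258 PRDM16 peaks), 1 held a MEF2 box, at *Mef2a* (1.25%), 4 held GGAATG (18.8%), 2 held the GATA-type site AGATAA (9.47%), 1 held CCGGAA (18.6%), and 11 held GGGCGG (52.8%). These are matches of letters in peaks of different length and are not evidence of binding. GGGCGG can overlap GC-rich stretches of promoters, and the median GC content at the summits of all PRDM16 peaks was 63.7%.

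Among the partners and targets, promoter peaks were found for 17 of 20 YAP-TEAD targets, 9 of 10 immediate-early targets, 15 of 19 YAP partners and Hippo genes, 7 of 9 MEF2 partners, 6 of 10 SRF cofactors, 5 of 9 MEF2 targets, 7 of 12 cytoskeletal genes, and 4 of 18 smooth muscle CArG targets, beside 43.4% of all tested genes with a curated start. The strongest of the named genes was the peak at *Ccn2*, with a fold enrichment of 14.4, above 99.5% of all PRDM16 peaks. Its centre was 824 bp from the *Ccn2* start and 463 bp from that of *Gm15270*, so that it could not be assigned to 1 of the 2 genes, and a start of *4930483J18Rik* lies within 2 kb of 1 *Mrtfa* peak. *Ccn1*, *Nr4a1*, *Mrtfa*, *Mrtfb*, and *Wwtr1* also had promoter peaks, whereas *Acta2*, *Tagln*, *Cnn1*, *Myh11*, *Csrp1*, and *Ankrd1* had none, and the peak nearest to *Ankrd1* was 88.1 kb from its start. Of the 3 list genes that passed the expression test, *Nr4a1* thus had a promoter peak, and *Csrp1* and *Ankrd1* did not. *Csrp1* held a peak in an intron, 10.9 kb from its nearest curated start, with a fold enrichment of 3.41 and a q of 0.0133.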

How the data were processed

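Thoracic aortas (3 control and 3 Prdm16SMKO mice, grouped by sample titles; the table's WT and KO columns were matched to them) and fibroblast ChIP-Seq libraries were used. The authors deposited TPM, 1 column per aorta. Their processing notes name STAR 2.7.8a, RSEM 1.3.3, cutadapt 2.3, and GRCm38, without roles. TPM keep no depth, so no counting interval was computed. For ChIP-Seq, per the methods, bowtie2 was used for mapping, and MACS2, with its q setting at 0.01 and a human genome size, for peaks. The deposited lists hold a fold enrichment (a ratio over local background), −log10 p, −log10 q, a score, and a summit for each peak. Some listed peaks have a summit q above that threshold, and the score and −log10 p were not used. The IgG libraries were not analysed here.

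Expression was compared in R 4.3.3 by limma 3.58.1 (lmFit and eBayes with trend) on log2(TPM + 0.1) for genes with a mean of at least 0.5 TPM, with Benjamini-Hochberg adjustment over 15668 genes and a threshold of 0.05. Fold changes are on this scale and understate changes of low genes. Nothing in the labels states more about how the aortas relate than 1 per replicate number, and *P* values measure the spread between them. Shares were tested by exact two-sided permutation. The procedure was tested on simulated data. Peaks were placed with RefSeq and GENCODE annotation of GRCm38, and sequences were read from that build; promoter sequences are from RefSeq (GRCm38.p6), which held 7 of the 10 genes, all but *Myocd*, *Tead1*, and *Tead4*. The alternatives are given in the closing section.

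The regulators and the lists of partners, targets, and markers were chosen with earlier results of these data known. Named were all regulators, *Prdm16*, each called list gene or else the largest rise and fall of a list, 7 defining targets, 3 coactivators, and the 3 genes nearest to *Myocd*. *Hdac9* and *Fos* values follow from this rule.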

Additional observations from a re-analysis of the deposited data

How the results depend on the processing

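No regulator passed the threshold in the fit as reported or in any of 16 alternatives, and the smallest adjusted *P* of any regulator was 0.126 (*Mef2a*, median ratio scaling). The paper's list of changed genes with a PRDM16 promoter peak, from its own test, holds *Mef2a* and *Wwtr1* as lower and *Mrtfa* and *Mapk7* as higher. Other genes of the partner and target lists that it holds include *Csrp2*, *Vim*, *Asap1*, and *Tgfb2* as higher. It also holds *Vcl*, *Actg1*, *Jun*, *Fjx1*, *Amotl2*, and *Nr4a1* as lower. Apart from that of *Nr4a1*, which passed here as well, those calls differ from the ones of the fit as reported, in which none of these genes passed. *Tead4* did not pass the filter in every setting. Among the regulators the sign of *Mef2c* turned with median ratio scaling (0.05), quantile normalization (0.09), and without control 2 and Prdm16SMKO 3 (0.01, chosen after seeing the data), and ranged from -0.15 to 0.08 when 1 aorta was left out. That of *Mef2d* turned with the same settings (0.10, 0.13, and 0.05) and without mitochondrial transcripts (0.01), and ranged from -0.10 to 0.11 with 1 aorta left out. *Yap1* ranged from -0.01 to 0.20, and the share differences of *Tead1* from -2.48 to 0.165 and of *Tead3* from -3.01 to 0.836 percentage points, while *Mrtfb* ranged from -0.24 to 0.02, the latter without Prdm16SMKO 3. The cause was not tested.

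The number of all tested genes called (168, 61 higher and 107 lower) was 110 (40 and 70) without the TPM filter, 411 (196 and 215) with median ratio scaling, 392 (189 and 203) with quantile normalization, 279 (98 and 181) without mitochondrial transcripts, and 48 (24 and 24) without the trend. It was 57 for lower genes without control 2 and Prdm16SMKO 3, and 91 to 141 (36 to 75 higher, 45 to 89 lower) with 1 aorta left out. With the replicate number as a block, 184 genes and 0 regulators passed. The labels do not state that same-numbered aortas were paired. Their deviations from the group means had correlations of -0.0246, -0.07, and -0.00896, which show no strong shared shift but cannot exclude a pairing.

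Of the SRF cofactors 0 passed without the filter or trend, 2 with median ratio scaling, quantile normalization, or without mitochondrial transcripts, and 0 to 1 with 1 aorta left out. Of the MEF2 targets 0 passed without the filter, the trend, or control 2 and Prdm16SMKO 3, 2 with each of those 3 scalings, and 0 to 1 with 1 aorta left out. Of the MEF2 partners 2, 2, and 1 passed with the 3 scalings, and of the smooth muscle CArG targets 2, 4, and 2. Of the YAP-TEAD targets 3 passed with median ratio scaling, 3 with quantile normalization, and 2 without control 2 and Prdm16SMKO 3.

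Promoter windows of 1 kb before to 100 bp after the start left 1888 of all genes (14.3%), 2 regulators, 3 SRF cofactors, 3 MEF2 partners, 4 Hippo genes, 2 smooth muscle CArG targets, 2 immediate-early targets, and 5 YAP-TEAD targets with a peak; at a q of at most 1e-05, 4 regulators, 29.0% of all genes, and 5 immediate-early targets had one. All 16 body peaks of the regulators held at a q of at most 0.001.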

Other observations

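A further change was found among the heart muscle markers. *Tnnt2*, cardiac troponin T, which MEF2 and SRF regulate in heart muscle, stood at 33.8, 21.7, and 16.8 TPM in control and 484, 503, and 503 TPM in Prdm16SMKO aortas, with a log2 fold change of 4.42 (SE 0.22) and a limma adjusted *P* of 0.00015. It passed under all 17 settings of the fit, and it was named after its values were seen. The other heart muscle markers did not rise with it, since 3 of the 4 tested had lower point estimates and *Tnnt2* was the 1 that passed. *Tnnt2* had no PRDM16 peak in its body, and the nearest to its start was 17.4 kb upstream, 0.313 kb from a start of *Lad1*.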
